A study of Mus musculus with 6 samples.

Results

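Mouse bone marrow-derived macrophages (BMDMs) were profiled by total RNA sequencing after 1 h with PBS or with lipopolysaccharide (LPS), and the nuclear-encoded genes of the respiratory chain and the ATP synthase were examined by complex. The members were the protein-coding genes whose symbol carried a stem of a chain subunit family (Nduf with a, b, c, s or v for complex I, Sdh for complex II, Uqcr for complex III, Cox4 to Cox8 for complex IV and Atp5 for complex V). This rule, which used names and no measured value, found 85 of the 55335 rows of the gene count table, 37 in complex I, 4 in complex II, 8 in complex III, 18 in complex IV and 18 in complex V. All 6 libraries came from wild-type (WT in the library names) C57BL/6 BMDMs grown in L929-conditioned medium, 3 labelled PBS and 3 labelled LPS. By the labels the groups differed only in the agent given, whose dose they do not state, and replicate numbers 1 to 3 were given as the batch in both.

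The respiratory chain passes electrons from NADH and succinate through complexes I to IV to oxygen, and the proton gradient built on the way drives the ATP synthase, complex V. Most subunits are encoded in the nucleus, made in the cytosol and imported, while a few core subunits are made inside the mitochondrion from its own DNA, so that each complex needs the products of both genomes. In macrophages, LPS is known to turn metabolism towards glycolysis over hours and to change how succinate and complexes I and II are used, whereas chain proteins themselves are long-lived.

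The total counts were 37787611 to 41516330 per library. A gene was tested if it had enough counts for edgeR's expression filter, and 15687 genes, 78 of the 85 members among them, were tested with edgeR's quasi-likelihood test with trimmed mean of M values (TMM) scaling, with p-values adjusted over all tested genes by the Benjamini-Hochberg method. A gene was called at an adjusted p below 0.05. Levels are counts divided by the TMM-scaled library size (normalized CPM, as cpm in edgeR), and log2 fold changes are LPS against PBS. The summed normalized CPM of the macrophage markers was 29946 to 31229 in PBS and 35887 to 36245 in LPS libraries, with all 8 markers present. Cd14 alone went from 390 to 406 in PBS to 3588 to 3674 in LPS libraries. Fcgr1 fell (log2 fold change -0.48), Mertk was not called (-0.042), and the other markers were called higher. Markers of other cells were lower. Of 5 T cell markers only Cd4 was above 1 normalized CPM on average, at 20.1 to 21.9 in PBS and 30.1 to 30.5 in LPS libraries. The summed B cell markers were at most 3.40, and the summed dendritic cell markers were at 1.20 to 1.45 in PBS and 4.93 to 6.17 in LPS. The neutrophil and progenitor sum was 14.7 to 16.4 in PBS and 19.8 to 20.9 in LPS. The stromal sum was 11.3 to 12.2 in PBS and 13.1 to 14.3 in LPS. The erythroid markers Hbb-bs and Hba-a1 had at most 1 and 9 counts in a library. The part of other cells in the results was not tested. The summed LPS response genes (Tnf, Il1b, Cxcl2 and Nfkbia) were 93.4 to 98.4 in PBS and 14860 to 14971 in LPS libraries, so that the groups were as labelled. LPS replicate 3 stood farther from its group: the chi-square per degree of freedom of the counts was 13.2 and 19.4 against the other LPS libraries and 5.20 to 7.05 between all other pairs of a group.

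Promoter sequence was available for 69 of the 85 members, 2 of them found through an older symbol. The windows ran from 250 bases before to 50 bases after the start in RefSeq on GRCm38.p6, and motifs were exact matches to fixed letters on either strand. Since factors of the NRF1, ETS (GABP), YY1, CREB and ERR families are known to act at such genes, the letters searched were GCGCATGC for NRF1, CCGGAAG for the ETS family, AAGATGGC for YY1, TGACGTCA for CRE and TCAAGGTCA for ERR, none of which contains another. The 250 upstream bases are shown for 1 member of each complex that had a matched window and a motif, with the motif letters in capitals. These are chosen examples and do not stand for all members, as 46.6% of member windows held a motif.
Ndufs3 (chr2:90904722-90904971, minus strand; ETS family letters): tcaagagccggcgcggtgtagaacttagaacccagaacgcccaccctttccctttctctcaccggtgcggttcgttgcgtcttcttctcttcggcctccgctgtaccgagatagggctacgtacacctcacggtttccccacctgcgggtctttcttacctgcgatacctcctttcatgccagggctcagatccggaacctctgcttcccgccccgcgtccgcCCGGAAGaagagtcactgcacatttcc
Sdhb (chr4:140961021-140961270, plus strand; NRF1 letters): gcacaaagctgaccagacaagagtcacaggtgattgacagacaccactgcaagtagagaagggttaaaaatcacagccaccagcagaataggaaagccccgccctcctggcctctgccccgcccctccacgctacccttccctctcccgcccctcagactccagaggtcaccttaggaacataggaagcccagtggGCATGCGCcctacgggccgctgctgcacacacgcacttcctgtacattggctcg
Uqcrfs1 (chr13:30545317-30545566, minus strand; CRE letters): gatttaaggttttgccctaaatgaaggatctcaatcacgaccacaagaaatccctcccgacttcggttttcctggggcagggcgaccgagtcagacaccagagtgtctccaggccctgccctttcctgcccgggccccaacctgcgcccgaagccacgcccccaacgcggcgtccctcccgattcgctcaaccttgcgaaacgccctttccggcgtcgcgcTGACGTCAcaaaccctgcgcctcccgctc
Cox6a1 (chr5:115348959-115349208, minus strand; NRF1 letters on both strands, overlapping, then ETS family letters): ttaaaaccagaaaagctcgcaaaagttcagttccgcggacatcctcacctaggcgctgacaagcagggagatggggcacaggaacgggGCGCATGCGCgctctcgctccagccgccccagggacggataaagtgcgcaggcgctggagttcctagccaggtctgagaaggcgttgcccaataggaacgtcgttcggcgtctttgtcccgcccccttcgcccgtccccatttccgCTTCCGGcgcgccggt
Atp5l (chr9:44920743-44920992, minus strand; NRF1 then ETS family letters): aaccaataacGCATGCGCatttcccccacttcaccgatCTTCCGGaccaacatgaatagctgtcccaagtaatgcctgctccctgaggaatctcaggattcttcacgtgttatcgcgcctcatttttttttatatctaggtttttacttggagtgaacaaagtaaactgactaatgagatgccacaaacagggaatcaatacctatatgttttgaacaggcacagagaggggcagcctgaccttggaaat
The windows of Ndufs3, Sdhb and Atp5l held a further ETS family match downstream of the printed bases. Over the 73 member windows, 46.6% held at least 1 of the 5 motifs, against 26.9% of the 12934 windows of tested genes and 15.0% of all 32851 windows. The NRF1 letters stood in 13.7% of member windows and 5.09% of tested-gene windows, the YY1 letters in 13.7% and 4.44%, the ETS family letters in 21.9% and 17.5%, the CRE letters in 5.48% and 2.98%, and the ERR letters in 2.74% and 0.271%. In all 32851 windows the shares were 2.71% for NRF1, 2.75% for YY1, 8.86% for the ETS family, 1.79% for CRE and 0.423% for ERR. Among tested members the median log2 fold change was 0.021 for the 34 with any motif and 0.0063 for the 31 with a window and none, and 8 of the 34 were called higher and 3 lower.

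The chain genes as a group stayed close to where they were after 1 h of LPS, relative to the typical gene. Over the 78 tested members the log2 fold change had a median of 0.022, with quartiles of -0.034 and 0.12, beside a median of -0.013 and quartiles of -0.42 and 0.32 over all 15687 tested genes. Of the 78 members, 21 were called higher and 6 lower with edgeR's quasi-likelihood test, which is 26.9% and 7.69%, beside 32.9% and 34.9% of all tested genes called higher and lower. No member passed both criteria of the study (adjusted p below 0.05 and an absolute log2 fold change above 1) with edgeR, DESeq2 or limma voom, although 28 had an unadjusted p below 0.05, and 20.9% of all tested genes passed both with edgeR. For 76 of the 78 members the 95% interval of the log2 fold change lay within ±0.5, the others being Cox6a2 and Atp5s. In bulk RNA, a change in the number of cells of a type and a change in RNA per cell cannot be told apart. The 3 LPS libraries were all above the 3 PBS libraries for 22 members and all below for 6, which is 28.2% and 7.69% of the members, beside 33.9% and 36.6% of tested genes. Without LPS replicate 3, 22 members were called higher and 5 lower.

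**Figure D1:**
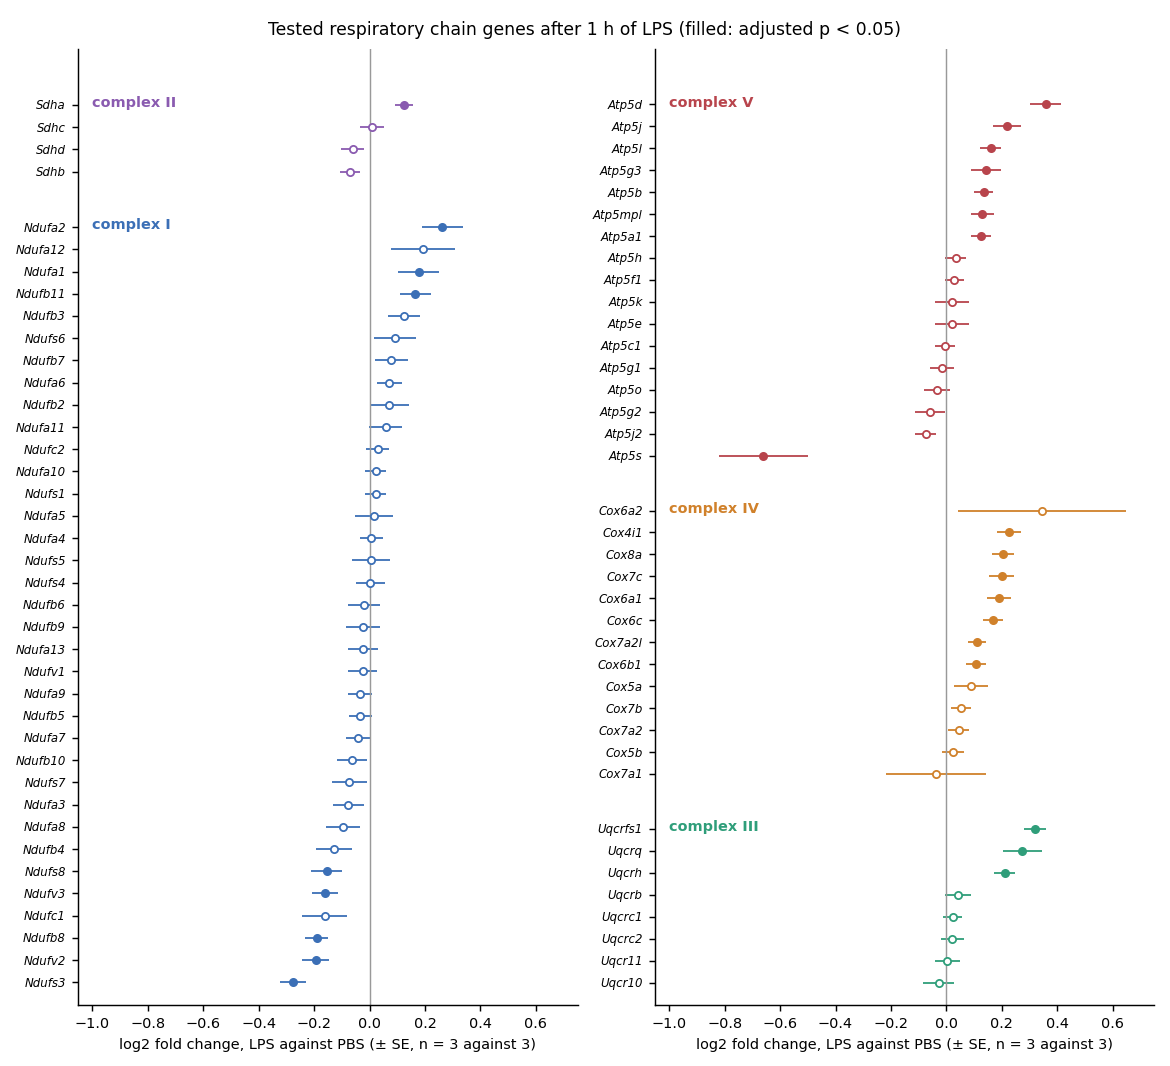
Log2 fold change of LPS against PBS (x axis, TMM scaling) for 77 of the 78 tested members by complex; points are edgeR estimates, bars are ± SE over 3 against 3 libraries, and filled points had an adjusted p below 0.05. The points run from -0.66 for Atp5s to 0.36 for Atp5d, with filled points to the right in complexes III and IV and on both sides in complex I; with scaling by library size alone all 78 lie below 0.

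The scaling between libraries set the sign of these small values. TMM factors were 1.15 in PBS and 0.864 to 0.872 in LPS libraries, and scaling by library size alone took the median of all tested genes to -0.42 and that of the members to -0.38. With that scaling 0 members were called higher and 72 lower, beside 15.0% and 65.9% of all tested genes. The distance of the members' median from that of all genes was 0.034 to 0.035 under each of the 6 scalings. A scaling moves all genes by nearly the same amount, so that this distance and the order of complexes are no independent check. The directions given here are therefore those relative to the bulk of tested genes, and complex IV had the highest and complexes I and II the lowest median under each scaling.

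Complex I, the NADH dehydrogenase, has the most members. Of its 36 tested members 3 were called higher, 5 lower and 28 neither, beside 32.9% higher and 34.9% lower over all tested genes, and the median log2 fold change was -0.021; with library size alone it was -0.43. Ndufs3, a core subunit of the arm that leads electrons to ubiquinone, had 32.0, 30.2 and 31.5 normalized CPM in the PBS libraries and 26.1, 26.2 and 25.2 in the LPS libraries. The LPS libraries lay below all PBS libraries, and Ndufs3 fell with a log2 fold change of -0.28 ± 0.047 (SE) and an edgeR adjusted p of 5.38e-05. Ndufv2, an iron-sulfur core subunit of the NADH-oxidizing tip, had 45.1, 40.4 and 40.9 in PBS and 36.5, 36.0 and 38.0 normalized CPM in LPS libraries. These did not overlap either, and the log2 fold change was -0.19 ± 0.049 (SE) with an edgeR adjusted p of 0.00195. Ndufs8, which carries further iron-sulfur clusters on the way to ubiquinone, had 32.2, 31.2 and 28.6 in PBS and 27.2, 29.2 and 26.3 normalized CPM in LPS libraries, so that the groups overlapped. Its log2 fold change was -0.15 ± 0.055 (SE) with an edgeR adjusted p of 0.0197, and the call was lost in edgeR without PBS replicate 1 or 2 or LPS replicate 1 or 3 (adjusted p 0.0511 to 0.0906). DESeq2 gave Ndufs8 an adjusted p of 0.0661.

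Ndufv1, Ndufs1 and Ndufs7, further core subunits of complex I, were not called. Ndufv1, which binds NADH and its flavin, had a log2 fold change of -0.025 ± 0.053 (SE), and Ndufs1, the large iron-sulfur subunit beside it, had 0.022 ± 0.038 (SE). Ndufs7, at the ubiquinone site, had -0.073 ± 0.063 (SE). The 95% intervals were -0.14 to 0.087 for Ndufv1, -0.058 to 0.10 for Ndufs1 and -0.21 to 0.060 for Ndufs7.

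Among the accessory subunits of complex I, Ndufb8 and Ndufv3 were called lower. Ndufb8, of the outer membrane arm, had 56.9, 56.1 and 55.2 in PBS and 47.4, 51.4 and 48.5 normalized CPM in LPS libraries, a gap between the groups with a log2 fold change of -0.19 ± 0.041 (SE) and an edgeR adjusted p of 0.000492. Ndufv3, at the NADH tip, had -0.16 with an edgeR adjusted p of 0.00686, also with no overlap. Ndufa2, an accessory subunit of the same tip, went the other way: its level was 48.7, 61.0 and 50.2 in PBS and 63.7, 70.3 and 57.8 normalized CPM in LPS libraries. The groups overlapped, every LPS library was above the PBS library of its number, and Ndufa2 rose with 0.26 ± 0.073 (SE) and an edgeR adjusted p of 0.00425, against 0.0519 with DESeq2. Ndufb11 and Ndufa1, small X-linked membrane subunits, rose by 0.17 and 0.18 with edgeR adjusted p-values of 0.017 and 0.0424, with overlapping groups. The call for Ndufb11 was lost in edgeR without PBS replicate 1, LPS replicate 1 or LPS replicate 2 (adjusted p 0.055 to 0.117). That for Ndufa1 was lost without any library other than PBS replicate 2 (edgeR adjusted p 0.058 to 0.251).

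Ndufa12, which joins the arms near the ubiquinone site, was not called, at 15.2, 13.4 and 12.2 in PBS and 18.4, 16.5 and 11.9 normalized CPM in LPS libraries. LPS replicate 3 was the lowest of all 6 and the other LPS libraries were the highest. Its log2 fold change was 0.19 ± 0.12 (SE), with an edgeR adjusted p of 0.147, of 0.0183 with replicate as a block and of 0.00232 without LPS replicate 3 (log2 fold change 0.35). Ndufb3 had 0.12 and an edgeR adjusted p of 0.0712, which became 0.0443 with the block. Without PBS replicate 2, Ndufb3 and Ndufs6 were called higher (log2 fold change 0.17 and 0.18, edgeR adjusted p 0.0295 and 0.0358). Without LPS replicate 3, Ndufb7 was called higher (0.15, edgeR adjusted p 0.0317). In contrast, Ndufb4 was called lower without LPS replicate 1 (-0.20, edgeR adjusted p 0.0155). Ndufc1 was called lower without PBS replicate 1 (-0.25, edgeR adjusted p 0.00569). With no filter beyond 1 count, Ndufb4 and Ndufc1 were also called lower and Ndufa12 higher. Ndufa4, named for complex I and now placed in complex IV, had 0.0063 ± 0.043 (SE), and counting it with complex IV left the medians at -0.023 for complex I and 0.11 for complex IV.

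Complex II, succinate dehydrogenase, is shared by the chain and the citric acid cycle and has no subunit from mitochondrial DNA. Sdha, its flavoprotein that oxidizes succinate, had 178, 180.3 and 172 normalized CPM in the PBS libraries and 189, 193 and 195 in the LPS libraries. The LPS libraries were all higher, and Sdha rose with 0.12 ± 0.032 (SE) and an edgeR adjusted p of 0.0029. Sdhb, the iron-sulfur subunit, had 83.1, 84.4 and 81.1 in PBS and 75.7, 80.1 and 80.9 normalized CPM in LPS libraries. Here the LPS libraries were all lower, though the nearest libraries of the groups almost met, and Sdhb was not called, with -0.071 ± 0.037 (SE) and an edgeR adjusted p of 0.102. With no filter beyond 1 count and with at least 10 counts in every library, that p was 0.038 and 0.0421. The membrane anchors Sdhc and Sdhd were not called, at 0.0092 ± 0.043 (SE) and -0.061 ± 0.042 (SE). Sdhd was called without PBS replicate 3 (log2 fold change -0.10, edgeR adjusted p = 0.0457). The median over the 4 genes was -0.026, and -0.43 with library size alone.

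Complex III, the cytochrome bc1 complex, had 3 of 8 members called higher and none lower, a share of higher calls near the 32.9% of all tested genes, with a median of 0.032 (-0.37 with library size alone). Uqcrfs1, the Rieske iron-sulfur protein that hands electrons to cytochrome c1, had 54.9, 57.9 and 58.0 normalized CPM in PBS and 67.6, 73.5 and 72.0 in LPS libraries. No library of the groups overlapped, and Uqcrfs1 rose with 0.32 ± 0.041 (SE) and an edgeR adjusted p of 1.87e-06, a change of 24.8%. Uqcrh, the acidic hinge protein beside cytochrome c1, had 98.9, 108 and 102 in PBS and 118, 122 and 117 normalized CPM in LPS libraries. It rose with 0.21 ± 0.038 (SE) and an edgeR adjusted p of 8.15e-05, again without overlap. Uqcrq, a small subunit that contacts cytochrome b, had 14.1, 17.2 and 16.9 in PBS and 19.5, 19.1 and 19.7 normalized CPM in LPS libraries, and rose with 0.27 ± 0.071 (SE) and an edgeR adjusted p of 0.00232. The large core proteins Uqcrc1 and Uqcrc2, which form the matrix side of the complex, had 0.023 ± 0.035 (SE) and 0.021 ± 0.040 (SE), with intervals of -0.051 to 0.10 and -0.064 to 0.11. The small subunits Uqcrb, Uqcr10 and Uqcr11 had 0.041, -0.028 and 0.0028 and were not called either.

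Complex IV, cytochrome c oxidase, had 7 of 13 tested members called higher and none lower, beside 32.9% higher and 34.9% lower over all tested genes. The median log2 fold change was 0.11 under TMM scaling and -0.30 with library size alone. Cox4i1, the ubiquitous subunit that binds adenine nucleotides, had 242, 265 and 242 normalized CPM in PBS and 290.3, 307 and 277 in LPS libraries. All LPS libraries were higher, and Cox4i1 rose with 0.22 ± 0.043 (SE) and an edgeR adjusted p of 0.000155. Cox8a, the smallest ubiquitous subunit, had 89.4, 98.4 and 95.0 in PBS and 112, 107 and 107 normalized CPM in LPS libraries and rose with 0.20 ± 0.039 (SE) (edgeR adjusted p = 0.00016). Cox6a1, the non-muscle form of subunit 6a, had 63.9, 67.6 and 62.0 in PBS and 72.2, 77.9 and 70.5 normalized CPM in LPS libraries and rose with 0.19 ± 0.044 (SE) (edgeR adjusted p = 0.00098). In these and in the other called members, Cox7c, Cox6c, Cox7a2l and Cox6b1, the groups did not overlap. Cox7c and Cox6c rose by 0.20 and 0.17, with edgeR adjusted p-values of 7e-04 and 0.000717. Cox7a2l, known for joining complexes III and IV into supercomplexes, rose by 0.11 (edgeR adjusted p = 0.00758). Cox6b1, which faces cytochrome c, rose by 0.11 (edgeR adjusted p = 0.0146), a call lost in edgeR without PBS replicate 1, PBS replicate 3 or LPS replicate 1 (adjusted p 0.0514 to 0.0738) or with no filter beyond 1 count (0.0726).

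The remaining ubiquitous subunits of complex IV were not called. Cox5a and Cox5b, which cap the matrix side, had 0.089 ± 0.061 (SE) and 0.022 ± 0.040 (SE), and Cox7a2 and Cox7b had 0.045 ± 0.038 (SE) and 0.054 ± 0.036 (SE). Without PBS replicate 2, Cox5a was called higher (log2 fold change 0.17, edgeR adjusted p = 0.00675). Tissue forms of complex IV subunits were near or at the limit of counting. Cox6a2, the heart and muscle form, had 18, 17 and 14 counts in the PBS libraries and 18, 13 and 14 in the LPS libraries, and its interval of -0.29 to 0.98 was the widest of all members. Cox7a1, also a muscle form, had 61, 54 and 70 counts in PBS and 43, 47 and 40 in LPS libraries, and -0.037 ± 0.18 (SE) as its log2 fold change, which was not called. Per kb of transcript, the PBS level of Cox6a2 was 0.518 ± 0.0626 normalized CPM against 113 ± 4.95 for Cox6a1, and that of Cox7a1 was 3.39 ± 0.424 against 74.0 ± 0.547 for Cox7a2 (SD, n = 3).

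Among the 7 members that did not enter the test, 5 belonged to complex IV. Cox4i2, the lung form of subunit 4, had 0, 2 and 2 counts in PBS and 1, 1 and 0 in LPS libraries. Cox6b2, a testis form, had 7, 10 and 5 in PBS and 9, 5 and 5 counts in LPS libraries. Cox7b2 and Cox8c, testis forms, and Cox8b, the muscle form of subunit 8, had 0 counts in each library, where 3 counts correspond to 0.063 to 0.092 normalized CPM; these limits cover counting error only. Ndufa4l2, a hypoxia-linked relative of Ndufa4, had 1, 9 and 5 counts in PBS and 6, 0 and 7 in LPS libraries. The last was a second row named Atp5o (ENSMUSG00000116933.1) with 0 counts, whose exons overlap those of the expressed Atp5o row and of Donson on the same strand.

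Complex V, the ATP synthase, had 7 of 17 tested members called higher and 1 lower, beside 32.9% higher and 34.9% lower over all tested genes. The median was 0.028, close to 0, and -0.38 with library size alone. Atp5d, the delta subunit of the rotating central stalk, had 47.9, 52.3 and 46.9 normalized CPM in PBS and 62.2, 68.9 and 57.4 in LPS libraries. The groups were apart, and Atp5d rose with 0.36 ± 0.057 (SE) and an edgeR adjusted p of 2.25e-05, the largest positive value of a called member. Atp5j, coupling factor 6 of the outer stalk, had 33.2, 34.3 and 36.1 in PBS and 38.7, 38.8 and 42.9 normalized CPM in LPS libraries and rose with 0.22 ± 0.050 (SE) (edgeR adjusted p = 0.000877). The catalytic head had smaller values. Atp5b, the beta subunit that makes ATP, had 387, 375 and 361 in PBS and 409, 412 and 410.5 normalized CPM in LPS libraries. It rose with 0.13 ± 0.034 (SE) (edgeR adjusted p = 0.00197). Atp5a1, the alpha subunit, had 429.5, 429 and 419 in PBS and 450.1, 487 and 454 normalized CPM in LPS libraries and rose with 0.12 ± 0.036 (SE) (edgeR adjusted p = 0.0059). Atp5c1, the gamma shaft inside that ring, was not called, with -0.0052 ± 0.037 (SE) and an interval of -0.084 to 0.074.

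Atp5g1, Atp5g2 and Atp5g3 make the identical subunit c of the membrane rotor. Atp5g3 had 40.4, 46.8 and 47.4 in PBS and 49.8, 50.6 and 48.2 normalized CPM in LPS libraries and rose by 0.14 (edgeR adjusted p = 0.0249), a call lost in edgeR without PBS replicate 1, LPS replicate 1 or LPS replicate 2 (adjusted p 0.077 to 0.18). Atp5g1 and Atp5g2 had -0.016 ± 0.043 (SE) and -0.060 ± 0.053 (SE) and were not called; without LPS replicate 1, Atp5g2 was called lower (log2 fold change -0.13, edgeR adjusted p = 0.0321). Small membrane subunits Atp5l and Atp5mpl rose by 0.16 and 0.13 (edgeR adjusted p = 0.0017 and 0.0119), the call of Atp5mpl being lost with no filter beyond 1 count. Atp5j2, the f subunit, had -0.074 and was not called, but was called lower without PBS replicate 2 (edgeR adjusted p = 0.0364), with no filter beyond 1 count (0.0408) and with at least 10 counts in every library (0.0434). The stalk subunits Atp5f1, Atp5h and Atp5o, the epsilon subunit Atp5e and the e subunit Atp5k lay between -0.034 and 0.033 with no call.

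Atp5s, coupling factor B, which is not a fixed subunit of the enzyme, was the member that fell most. It had 136, 126 and 159 counts in the PBS libraries and 75, 69 and 48 in the LPS libraries, or 2.86, 2.79 and 3.45 and 2.23, 2.11 and 1.41 normalized CPM. The groups did not overlap, and Atp5s fell with -0.66 ± 0.16 (SE) and an edgeR adjusted p of 0.0015, beside a range of -0.28 to 0.36 for the other called members. With library size alone its value was -1.06, which put it past both criteria, as no other member was under any alternative run. Its level per kb was 1.90 ± 0.226 normalized CPM in PBS libraries (SD, n = 3), the lowest among the tested members of complex V.

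The balance among complexes was read from summed counts, which does not depend on the scaling between libraries. Complex I gave 25.4% to 25.9% of the members' counts in PBS and 23.9% to 24.3% in LPS libraries, so that the LPS libraries were all lower. Complex IV gave 22.3% to 22.7% in PBS and 23.6% to 23.8% in LPS libraries, which were all higher. Complex II went from 8.46% ± 0.0630 to 8.21% ± 0.116 and complex III from 9.67% ± 0.0739 to 9.90% ± 0.0277 (SD, n = 3 each). Complex V, the largest, gave 33.7% ± 0.414 in PBS and 34.1% ± 0.140 in LPS libraries, with overlapping libraries. The libraries of the groups did not overlap for complexes I to IV, a description without a test. Of all library counts, the members took 0.557% to 0.579% in PBS and 0.447% to 0.459% in LPS libraries, while their summed normalized CPM was 4942 ± 90.5 and 5205 ± 97.8 (SD, n = 3 each).

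**Figure D2:**
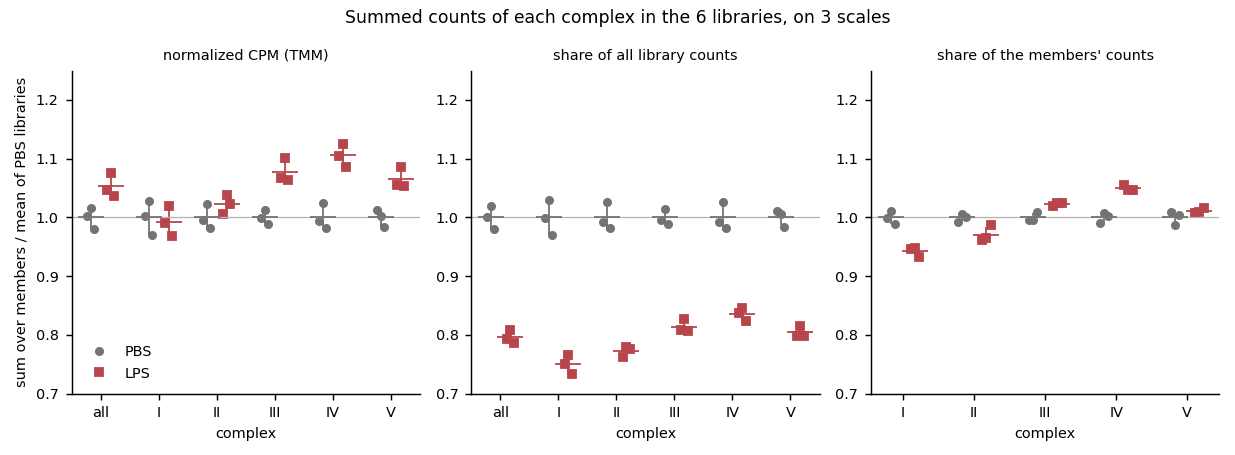
Summed counts of the members by complex in each of the 6 libraries, divided by the mean of the PBS libraries (y axis; points are libraries, horizontal marks with bars are mean ± SD, n = 3), as normalized CPM, as a share of the library and as a share of the members' counts. The LPS libraries lie above the PBS mean on the first scale for complexes II to V and below it on the second for each complex; on the third, complex I is at 0.933 to 0.948 and complex IV at 1.05 to 1.06 of the PBS mean.

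When the members' own sum was used as library size, 10 members were called higher and 18 lower, beside 27.2% and 39.9% of all tested genes. Complex I then had 1 higher and 14 lower, complex II 0 and 2, complex III 3 and 0, complex IV 4 and 0, and complex V 2 and 2. This scale moved the median of all tested genes from -0.013 to -0.088, which favours lower calls, so that kept lower calls are no check. All 6 members called lower with TMM were also lower on this scale, and 10 of the 21 called higher were also higher. These 10 were Ndufa2, Uqcrfs1, Uqcrh, Uqcrq, Cox4i1, Cox6a1, Cox6c, Cox8a, Atp5d and Atp5j. Sdhb and Sdhd, not called with TMM, were lower here, with -0.15 and -0.14 (edgeR adjusted p = 0.00464 and 0.0123), while Sdha had 0.048 and was not called.

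**Figure D3:**
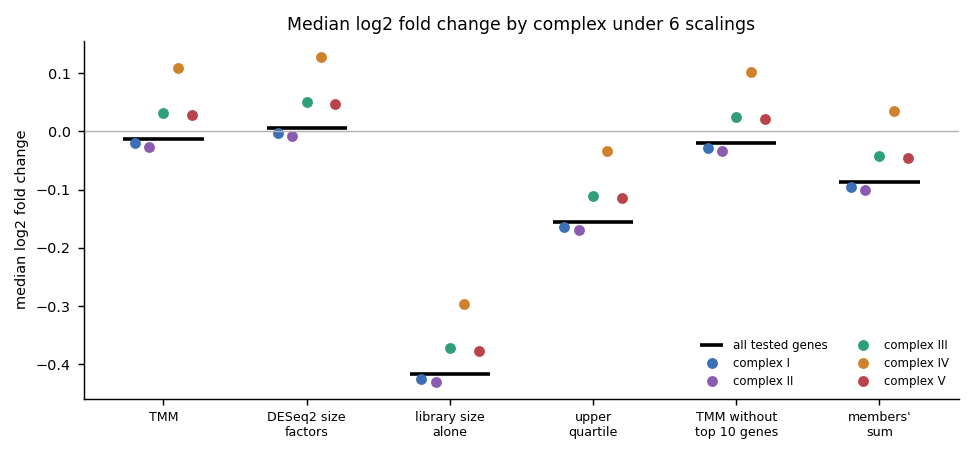
Median over each complex of the log2 fold change (y axis; coloured points, tested members) and of all tested genes (black bars) under 6 ways of scaling the libraries (x axis). The black bars move from 0.0055 with DESeq2 size factors to -0.42 with library size alone, and under each scaling complex IV is highest and complexes I and II are lowest. All genes move by nearly the same amount between scalings, so that this order could hardly change.

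Levels within a complex spanned a wide range although its subunits are built in at fixed numbers. Levels between genes are given as normalized CPM per kb of the principal transcript, as mean ± SD over 3 PBS libraries, with ranges, ranks and medians over the tested members. In complex I they ran from 104 ± 4.61 for Ndufa4 to 2.44 ± 0.0278 for Ndufb2, with a median of 29.5; the principal transcript taken for Ndufb2 is 4371 bases long, against a median of 0.850 kb over the tested members, and that for Atp5g1 is 4715 bases long. In complex IV Cox4i1 led with 326 ± 17.8, followed by Cox7a2l with 241 ± 8.22 and Cox8a with 171 ± 8.24, and the median was 85.3. In complex V Atp5b led with 195 ± 6.65, followed by Atp5a1 with 172 ± 2.43, and the median was 72.1. Complex III was led by Uqcrh at 188 ± 8.27, and its median was 76.6. The genes of complex II were closer together, from 27.7 ± 0.956 for Sdhc to 72.6 ± 1.43 for Sdhb. Of the first-ranked genes, Uqcrh, Cox4i1 and Atp5b were called higher in LPS, and Ndufa4 and Sdhb, ranked in complexes I and II, were not called (log2 fold changes 0.0063 and -0.071). Ndufa4 stands in complex I here by its symbol alone. Next in complex I was Ndufa6 with 97.9 ± 5.32, also not called.

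**Figure D4:**
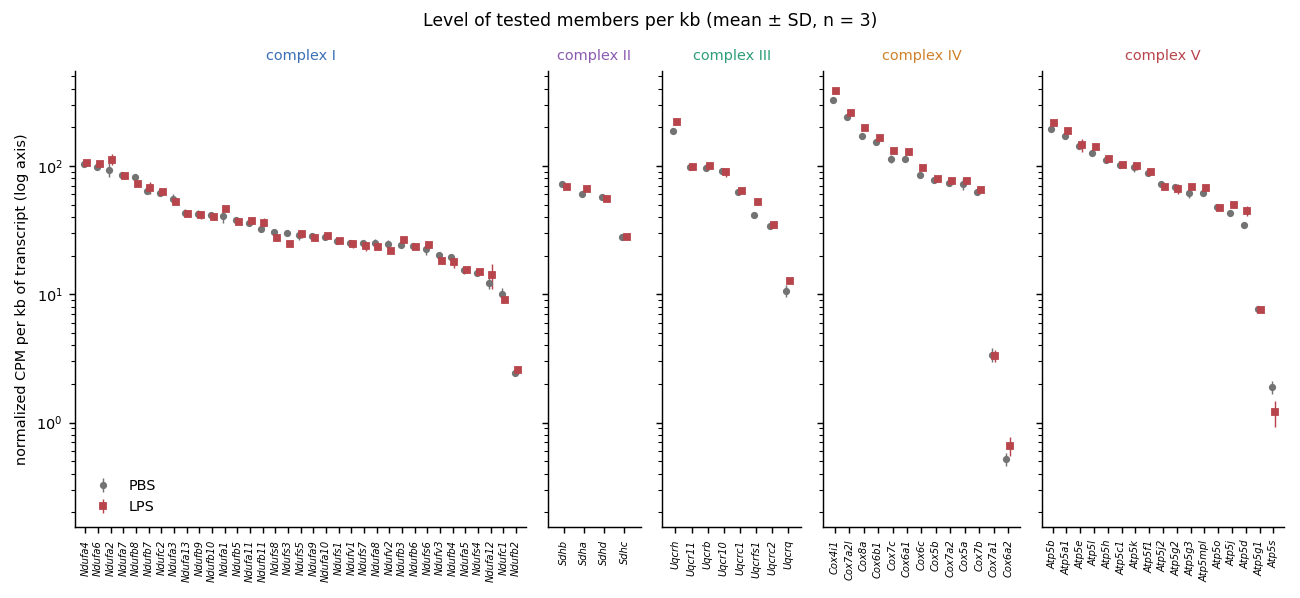
Level of 77 of the 78 tested members per kb of transcript in normalized CPM (log axis) in PBS (grey) and LPS (red) libraries, as mean ± SD over 3 libraries each, ordered within a complex by the PBS level. Levels span from 0.518 for Cox6a2 to 326 for Cox4i1 in PBS libraries, and PBS and LPS points nearly coincide at this scale.

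Gene lists around the chain are given as counts and medians, in TMM scaling, with the library size alone value beside. Of all tested genes, 32.9% were called higher and 34.9% lower with TMM, and 15.0% and 65.9% with library size alone. Of the 13 protein-coding genes of the mitochondrial genome, which encode the other subunits of complexes I, III, IV and V, 10 were tested and all 10 were called higher (7 with library size alone, none lower). Their median was 0.93, and 0.53 with library size alone. mt-Co1, the catalytic subunit of complex IV, had 160249 to 194436 counts in PBS and 154127 to 190341 in LPS libraries and a log2 fold change of 0.43 ± 0.053 (SE) (edgeR adjusted p = 1.11e-06). mt-Atp6 had 1.52 ± 0.41 (SE) from only 12, 5 and 5 counts in PBS and 20, 10 and 16 in LPS libraries. Next to it mt-Nd2 and mt-Nd4, with at least 419 counts in each library, had 1.11 ± 0.066 (SE) and 1.10 ± 0.078 (SE), or 0.70 and 0.69 with library size alone. The counts of these rows were uneven, with 96 to 119 for mt-Co2 in a library, so that levels among them were not compared.

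Assembly factors, which build the complexes without being part of them, were mostly called lower. Of 51 tested, 4 were higher and 33 lower, beside 32.9% and 34.9% of all tested genes, with a median of -0.35. With library size alone the median was -0.76, with 2 higher and 48 lower, beside 15.0% and 65.9%. Tmem186 and Tmem126b, of the complex that assembles the membrane arm of complex I, had -1.76 and -1.71, from 12.6 ± 0.428 to 3.72 ± 0.448 and from 24.4 ± 0.462 to 7.46 ± 0.210 normalized CPM (SD, n = 3). Taco1, which activates translation of mt-Co1, had -1.35 ± 0.11 (SE) (edgeR adjusted p = 7.87e-09). Ttc19, a factor of complex III, rose from 6.69 ± 0.247 to 29.6 ± 1.03 normalized CPM (log2 fold change 2.14 ± 0.062 (SE), edgeR adjusted p = 1.1e-15). Cox17, the copper carrier for complex IV, rose with 0.96 ± 0.064 (SE) and Ndufaf2, a complex I factor, with 0.33 ± 0.13 (SE) (edgeR adjusted p = 2.58e-10 and 0.0344).

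Genes that copy and express mitochondrial DNA were called lower in 16 of 22 cases and higher in 1, with a median of -0.57 (-0.98, with 22 lower, by library size alone). Of all tested genes 34.9% were called lower and 32.9% higher, and 65.9% were lower by library size alone. Mtif3, a mitochondrial translation initiation factor, had -2.16 ± 0.10 (SE), Twnk, the helicase of mitochondrial DNA, -1.82 ± 0.12 (SE), and Mterf1b -1.69 ± 0.31 (SE). Tfam, which packages and transcribes mitochondrial DNA and was singled out after its value was seen, had 20.3 ± 0.906 normalized CPM in PBS and 9.98 ± 0.777 in LPS libraries (log2 fold change -1.02 ± 0.069 (SE), edgeR adjusted p = 3.21e-10). Polg, the polymerase, was the called higher gene, with 0.12 ± 0.046 (SE) (edgeR adjusted p = 0.0329). Mtif2 and Slirp fell least, with -0.32 and -0.23.

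The ribosomal proteins divided by compartment. For comparison, 32.9% of all tested genes were called higher and 34.9% lower, and 15.0% and 65.9% with library size alone. Of 77 tested mitochondrial ribosomal proteins 3 were called higher and 51 lower, with a median of -0.27 (-0.68 with library size alone, 2 higher and 74 lower). Mrpl49, Mrpl44 and Mrpl43 had the lowest values, -1.55, -1.20 and -0.95, and Mrpl52, Mrpl39 and Mrps28 the highest, 1.77, 1.01 and 0.24. Of 77 cytosolic ribosomal proteins 73 were called higher and none lower, with a median of 0.21 that became -0.20 with library size alone (1 higher, 72 lower). Among them Rpl24 and Rps27a had 1.10 and 0.36, and Rpl10a, Rpl3 and Rpl9 the lowest called values, 0.12, 0.14 and 0.14. The nuclear chain genes, with a median of 0.022 and quartiles 0.16 apart, lay between these lists.

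Of 9 chain proteins that the name rule does not reach, 3 were called higher and 1 lower, beside 32.9% and 34.9% of all tested genes. Their median was 0.061 (-0.34 with library size alone, none higher and 8 lower, beside 15.0% and 65.9% of all tested genes). Cyc1, cytochrome c1 of complex III, and Cycs, the cytochrome c that links complexes III and IV, rose with 0.22 ± 0.054 (SE) and 0.19 ± 0.050 (SE) (edgeR adjusted p = 0.00162 and 0.00209). Usmg5, a small subunit of the ATP synthase, rose with 0.40 ± 0.051 (SE) (edgeR adjusted p = 1.65e-06). With library size alone Cyc1, Cycs and Usmg5 had -0.19, -0.21 and -0.0028. Ndufab1, the acyl carrier protein that is also a subunit of complex I, fell with -0.55 ± 0.066 (SE) (edgeR adjusted p = 8.92e-07), from 16.5 ± 0.647 to 11.3 ± 0.615 normalized CPM. The adenine nucleotide carriers Slc25a4 and Slc25a5, the synthase inhibitor Atpif1, and Higd1a and Higd2a were not called, with values from -0.11 to 0.079.

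The citric acid cycle, which supplies NADH and succinate, had 8 of 14 genes called higher and 1 lower, beside 32.9% and 34.9% of all tested genes. The median was 0.11 (-0.30 with library size alone, none higher and 12 lower, beside 15.0% and 65.9%). Dld, Dlst and Ogdh, the parts of the 2-oxoglutarate dehydrogenase, had the highest values, 0.41 ± 0.037 (SE), 0.40 ± 0.034 (SE) and 0.31 ± 0.037 (SE). Idh2, the mitochondrial NADP-dependent isocitrate dehydrogenase, was called higher with 0.12. Fh1, fumarase, fell with -0.15 ± 0.041 (SE) (edgeR adjusted p = 0.00305).

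Transcription regulators known for chain genes moved in both directions: of 12 tested, 5 were called higher and 4 lower, beside 32.9% higher and 34.9% lower over all tested genes. Their median was -0.0053, and with library size alone it was -0.41, with 5 higher and 7 lower. Gabpa and Gabpb1, the DNA-binding and activating subunits of the ETS factor GABP, rose with 0.52 ± 0.047 (SE) and 1.46 ± 0.052 (SE), whereas Gabpb2 fell with -0.49 ± 0.036 (SE) (edgeR adjusted p = 1.98e-08, 2.34e-14 and 9.85e-10). Nrf1 and Yy1 fell with -0.27 ± 0.052 (SE) and -0.12 ± 0.034 (SE) (edgeR adjusted p = 0.000221 and 0.00579). Creb1, Nrip1, a corepressor, and Hif1a, the hypoxia factor, rose with 0.76 ± 0.039 (SE), 0.95 ± 0.041 (SE) and 1.24 ± 0.042 (SE). These 3, Gabpa and Gabpb1 remained positive with library size alone, at 0.35, 0.54, 0.84, 0.11 and 1.06. Ppargc1b, a coactivator of mitochondrial genes, fell from 3.41 ± 0.174 to 2.17 ± 0.243 normalized CPM (-0.66 ± 0.13 (SE), edgeR adjusted p = 0.000197). Esrra, Sp1 and Pprc1 were not called, with -0.074, -0.073 and 0.062; with replicate as a block, Sp1 had an edgeR adjusted p of 0.0286.

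**Figure D5:**
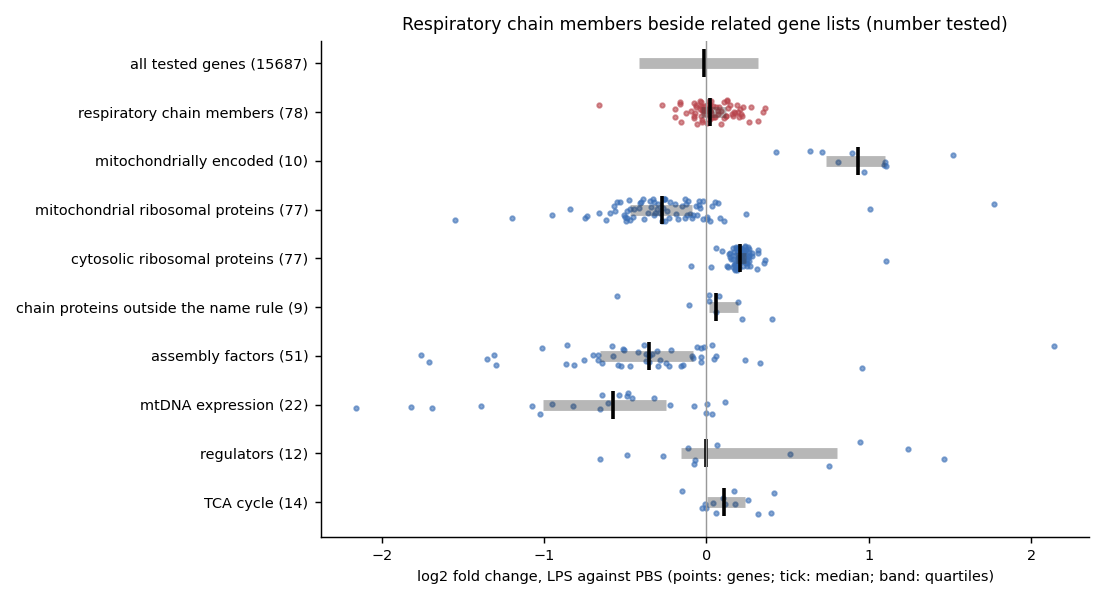
Log2 fold change of LPS against PBS (x axis, TMM scaling) for the genes of each list (points are genes, ticks are medians, bands are quartiles), with the number tested in parentheses. The 78 chain members form a narrow group around 0.022, the mitochondrially encoded genes lie around 0.93 and the assembly factors around -0.35. With library size alone these medians are -0.38, 0.53 and -0.76. Among the mitochondrially encoded genes mt-Co1, with the most counts, is at 0.43, and at 0.026 with library size alone.

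The members share features that the rule did not use. Their principal transcripts were short, with a median of 0.850 kb and 4 exons, against 2.98 kb and 9 exons over the 12137 tested protein-coding genes with a value, and their median level was 45.8 against 20.3 normalized CPM. They lay on 19 chromosomes, with 8 on chromosome 7 and none on chromosomes 14 and Y. Across the 78 members, which share libraries and are not independent replicates, the Spearman correlation of log2 fold change was -0.32 with exon number, -0.24 with gene span and -0.17 with transcript length, while over the 12137 genes it was 0.16, 0.23 and 0.14. With mean level it was 0.28 in members and 0.27 over all.

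Some members share exonic bases with a neighbour, and whether the counting used strand is not given in the sources used here, so that reads in the shared part could belong to either gene. This held for 30 of the 85 members, with 37 overlapping genes. Of the called members, exons of Atp5j share 397 bases with Gabpa on the opposite strand, which itself rose (0.52), and those of Cox4i1 share 154 bases with Emc8, which fell (-0.68). Ndufs3 shares 88 bases with Kbtbd4, which fell (-1.14), Atp5d shares 68 bases with Cbarp, which rose (2.07), and Ndufa2 shares 66 bases with Tmco6, which rose (0.33). Cbarp had 56 to 86 counts in PBS and 210 to 237 in LPS libraries, and Kbtbd4 had 949 to 1069 and 306 to 336. Cox6c shares 250 bases with Vps13b on the opposite strand, which rose (0.29). Vps13b had 11045 to 12389 counts in PBS and 9694 to 10820 in LPS libraries. Atp5a1 shares 129 bases with Haus1, which fell (-0.67). Called members with further overlapping genes were Ndufb11, Ndufb8 and Atp5l. The part of shared reads in these results was not tested. Rows with a member's stem that are not protein-coding included 11 processed pseudogenes with at most 65 counts in a library. They also included Ndufb1-ps, annotated as a bidirectional promoter lncRNA, with 1705 to 1832 counts in PBS and 1972 to 2055 in LPS libraries and a log2 fold change of 0.66 ± 0.042 (SE, edgeR adjusted p = 1.17e-10), or 0.26 with library size alone.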

How the data were processed

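Gene counts of 6 libraries were taken as the authors deposited them, 1 column per library, with the group and replicate from the sample labels. Per the labels and the methods, total RNA of BMDMs was prepared with a stranded total RNA globin kit, sequenced as read pairs, aligned to GRCm38 with HISAT2 2.1.0 and counted with featureCounts 2.0.0; the annotation release and the strand and multiple-mapping settings of the counting are not given in the sources used here. The deposited values are whole-number counts, not normalized, summing to 37787611 to 41516330 per library, and their number sets the precision of each value. Nothing in the labels says that libraries came from separate mice or cultures, so that p-values measure only the spread between these samples.

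Of 55335 rows, 55154 matched GENCODE M21 by Ensembl identifier without version; 181 had no symbol. Members were protein-coding rows chosen by symbol. The members and the gene lists were chosen with earlier results of these data known. In R 4.3.3, counts were filtered with filterByExpr (minimum count 10), scaled by TMM and tested with edgeR 4.0.16 (glmQLFit, glmQLFTest, no covariate), with Benjamini-Hochberg adjustment over 15687 genes; the SE was the log2 fold change divided by the square root of F. Alternatives were other scalings and filters, DESeq2 1.42.0, limma voom 3.58.1, a replicate block and leaving out each library. The labels name the replicate number as batch; after subtracting group means, libraries of the same number correlated at -0.014 to 0.082 across genes, and those of other numbers at -0.082 to 0.045. The fits were also run on simulated counts in which few genes changed, as many up as down. Such counts cannot check the scaling between the groups.

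Named members were those past both criteria, the 2 highest and 2 lowest of each complex, core subunits, tissue isoforms and untested members, and in the other lists the 3 highest and 3 lowest called genes and all regulators; further called members were named after their values were seen. A member and a few genes of the other lists that this rule selects are not reported here; counts and medians include them. Levels per kb used the APPRIS principal transcript. Promoter windows are from RefSeq (GRCm38.p6), the build of the alignment.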

Additional observations from a re-analysis of the deposited data

How the results depend on the processing

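The replicate numbers, which the labels give as batches, were used as pairing in a second fit. With this replicate block 23 members were called higher and 6 lower in LPS, beside 5324 and 5595 of the 15687 tested genes. Ndufa12 and Ndufb3 were added, and no other call of a member changed. For the other fits of this paragraph the calls over all tested genes are not given, and the counts only show how stable the calls were. DESeq2 called 20 higher and 5 lower, without Ndufa2 and Ndufs8, and limma voom 21 and 6. Leaving out each library in turn gave 17 to 24 members higher and 5 to 7 lower, with medians of 0.013 to 0.034 over the members, -0.036 to 0.0045 for complex I, -0.042 to -0.0025 for II, 0.022 to 0.067 for III, 0.091 to 0.16 for IV and 0.021 to 0.069 for V. A call was lost without some library for 5 members (Ndufa1, Ndufb11, Ndufs8, Cox6b1 and Atp5g3), kept without each for 22, and gained without some library for 10. With the 3 left in 1 group and 2 in the other, edgeR pools the spread over both.

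Scaling moved most values. In this section, sign changes are listed only for members that the naming rule selected, so that the lists are not complete. With TMM 49 members had a positive value, against 0 with library size alone, 17 with upper quartile scaling and 27 with the members' sum. With library size alone 0 members were higher, 72 lower and 1 past both criteria, and medians were -0.38 over the members, -0.43 for complexes I and II, -0.37 for III, -0.30 for IV and -0.38 for V. Values then changed sign to -0.21 for Ndufa12, -0.14 for Ndufa2, -0.40 for Ndufa4, -0.38 for Ndufs1, -0.28 for Sdha, -0.40 for Sdhc, -0.40 for Uqcr11, -0.38 for Uqcrc1, -0.38 for Uqcrc2, -0.085 for Uqcrfs1, -0.13 for Uqcrq, -0.18 for Cox4i1, -0.32 for Cox5a, -0.38 for Cox5b, -0.22 for Cox6a1, -0.056 for Cox6a2, -0.30 for Cox6b1, -0.36 for Cox7a2, -0.30 for Cox7a2l, -0.35 for Cox7b, -0.20 for Cox8a, -0.28 for Atp5a1, -0.27 for Atp5b, -0.047 for Atp5d, -0.26 for Atp5g3 and -0.19 for Atp5j. With upper quartile scaling 2 members were higher and 42 lower. This scaling took the median of all tested genes to -0.16, which favours lower calls, so that these counts are no result about the members. Medians were -0.12 over the members, -0.16 for complex I, -0.17 for II, -0.11 for III, -0.034 for IV and -0.11 for V. Values changed sign to -0.14 for Ndufa4, -0.12 for Ndufs1, -0.020 for Sdha, -0.13 for Sdhc, -0.14 for Uqcr11, -0.12 for Uqcrc1, -0.12 for Uqcrc2, -0.054 for Cox5a, -0.12 for Cox5b, -0.036 for Cox6b1, -0.10 for Cox7a2, -0.034 for Cox7a2l, -0.089 for Cox7b, -0.020 for Atp5a1 and -0.0089 for Atp5b. Scaled to the members' own sum, 10 were higher and 18 lower, and medians were -0.053 over the members, -0.095 for complex I, -0.10 for II, -0.043 for III, 0.035 for IV and -0.046 for V; values changed sign to -0.068 for Ndufa4, -0.053 for Ndufs1, -0.067 for Sdhc, -0.072 for Uqcr11, -0.052 for Uqcrc1, -0.053 for Uqcrc2, -0.053 for Cox5b, -0.030 for Cox7a2 and -0.020 for Cox7b. Of the calls of all tested genes 48.6% were higher with TMM, 18.5% with library size alone, 33.8% with upper quartile and 40.5% with the members' sum.

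The other alternatives changed the sign only of values near 0. TMM without the top 10 genes gave -0.0013 for Ndufa4 and -0.0047 for Uqcr11, and DESeq2's size factors gave 0.014 for Atp5c1 and 0.0031 for Atp5g1, as its test did with 0.014 for Atp5c1 and 0.0032 for Atp5g1. With no filter beyond 1 count, 20 members were higher and 10 lower, Cox6b1 and Atp5mpl losing the call, and values were -0.019 for Ndufa4, -0.0029 for Ndufs1, -0.016 for Sdhc, -0.022 for Uqcr11, -0.0020 for Uqcrc1, -0.0033 for Uqcrc2 and -0.0025 for Cox5b. With at least 10 counts in every library they were -0.011 for Ndufa4, -0.0077 for Sdhc and -0.014 for Uqcr11. Over the 6 fits without a library ranges that crossed 0 were -0.018 to 0.043 for Ndufa4, -0.038 to 0.036 for Sdhc, -0.032 to 0.023 for Atp5c1, -0.033 to 0.0039 for Atp5g1, -0.0052 to 0.040 for Ndufs1, -0.070 to 0.024 for Ndufv1, -0.093 to 0.010 for Uqcr10, -0.012 to 0.050 for Uqcrc2, -0.035 to 0.023 for Uqcr11, -0.12 to 0.066 for Cox7a1 and -0.019 to 0.041 for Cox5b. The causes were not tested, beyond the change in scale itself. The depth of 37787611 to 41516330 counts left at most 18 counts per library for Cox6a2, so that its interval was wide, and the 7 members not tested had at most 10.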
